A study of Caenorhabditis elegans with 79 samples.

Results

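The comparison described here is that of polyadenylated mRNA between morc-1 mutant and wild-type Caenorhabditis elegans in the first generation examined at 25 °C. Its members were the libraries labelled early for both strains, 2 of WT and 2 of morc-1, out of 12 mRNA libraries and 79 libraries in the whole series. WT was the strain N2 and the mutant was morc-1(tm6048). By the labels the F1 generation was sampled, with its P0 parents also kept at 25 °C and all earlier generations at 20 °C, on a diet of OP50 E. coli. RNA came from whole animals, labelled young adult in one field and gravid hermaphrodites in another. Each mutant was a single allele, and the labels do not say what tm6048 removes, nor whether replicates came from separate cultures, so the p-values cover the spread among these libraries and no more. Further groups used for comparison were hrde-1(tm1200) early (F1, 2 libraries), WT and morc-1 late (F4, 2 libraries each), and small RNA libraries of WT early and morc-1 early (F1, 3 libraries each).

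MORC proteins are ATPases of the GHKL family that help to compact chromatin and keep genes and transposons silent in plants and animals. In the worm germline, nuclear RNA interference is a pathway in which small interfering RNAs, amplified by RNA-dependent RNA polymerases, are carried into the nucleus by the Argonaute HRDE-1 and lead to repressive histone methylation at matching genes. Worms that lack nuclear RNAi factors are known to lose fertility over generations at raised temperature.

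The mRNA values were read as FPKM, reads scaled to transcript length and to the mapped reads of the library. The FPKM of a library summed to 1.131 and 1.118 M in morc-1 early and to 1.148 and 1.099 M in WT early. Read depth is unknown, because FPKM does not keep it. Replicates correlated across the genes tested at r = 0.942 (WT early) and 0.942 (morc-1 early) on the log2 scale, where genes are not independent replicates. Of 21976 genes, 7324 had a mean of at least 10 FPKM over the 12 mRNA libraries and were tested on log2(FPKM + 1), a scale that understates the change of low genes. Genes that mark intestine, muscle, germline, oocytes and sperm were all detected, while of 20 early embryo zygotic genes measured, only 1 passed the filter on low values.

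The mutated gene was lower in the mutant. morc-1 mRNA stood at 54.2 and 54.9 FPKM in WT early, against 14.1 and 13.7 FPKM in morc-1 early, so the groups did not overlap. Its log2 change was -1.90 ± 0.30 (SE) and did not pass after adjustment over all genes (limma adjusted p = 0.0780). It passed with quantile normalization (adjusted p = 0.0116) and with upper quartile scaling (0.006075). In hrde-1 early the gene stood at 50.83 and 48.2 FPKM, just below the WT libraries and far above the morc-1 libraries. hrde-1 itself, listed under the symbol wago-9, stood at 233.6 and 197.6 FPKM in WT early, against 125.4 and 160.7 FPKM in morc-1 early (log2 -0.59 ± 0.22, limma adjusted p = 1).

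Few genes changed, and each of them rose. Of 7324 genes, 8 were higher in morc-1 early (0.109%) and 0 were lower (0.0%) at an adjusted p under 0.05 in limma. At an unadjusted p under 0.05, 91 genes were higher (1.24%) and 130 were lower (1.77%). With quantile normalization 7 were higher, 6 of them among the 8, and 1 was lower, the latter being morc-1. The 8 genes lay on chromosomes I to V and none on X. They were timm-17B.2, rnh-1.3, F55B11.6, F28F8.7, C38D9.2, ife-5, F40D4.13 and saeg-2. Their ratios of mean FPKM ran from 5.104-fold for ife-5 to 70.1-fold for C38D9.2. C38D9.2 and F40D4.13 passed the filter on low values only through libraries outside this comparison. With the mean of at least 10 FPKM taken over the libraries compared, these genes were not tested and the other 6 were called.

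timm-17B.2, listed under its sequence name D2096.1, encodes a subunit of the translocase that imports proteins across the mitochondrial inner membrane. It stood at 42.04 and 46.55 FPKM in WT early, against 615.8 and 581.4 FPKM in morc-1 early. It was the most abundant of the 8 in both groups, and its mean rose 13.5-fold (log2 change 3.73 ± 0.21, limma adjusted p = 5.29e-05). The gene rnh-1.3 belongs to the RNase H family, which cuts RNA paired with DNA. It stood at 10.7 and 9.73 FPKM in WT and at 161.3 and 175.3 FPKM in morc-1. Its mean rose by a log2 change of 3.92 ± 0.25 (adjusted p = 8.71e-05 in limma). Both libraries of each group lay close together for these genes.

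F55B11.6, a protein-coding gene on chromosome IV, stood at 2.00 and 0.723 FPKM in WT and at 65.2 and 45.2 FPKM in morc-1. It had the largest log2 change of the 8, 4.604 ± 0.34 (limma adjusted p = 0.000228). F28F8.7 on chromosome V stood at 5.97 and 4.96 FPKM in WT and at 64.4 and 68.6 FPKM in morc-1 (log2 3.39 ± 0.31, limma adjusted p = 0.00121). C38D9.2, also on V and a known target of nuclear RNAi, stood at 0.117 and 0.323 FPKM in WT and at 13.6 and 17.2 FPKM in morc-1 (log2 3.75 ± 0.40, limma adjusted p = 0.00389). These genes were near silent or low in WT, and both morc-1 libraries lay far above both WT libraries for each.

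ife-5 encodes an eIF4E, the protein that binds the cap of mRNAs to start translation. It stood at 16.99 and 12.23 FPKM in WT and at 89.8 and 59.3 FPKM in morc-1 (log2 2.26 ± 0.28, limma adjusted p = 0.0116). F40D4.13 stood at 0.343 and 0.623 FPKM in WT and at 9.95 and 6.44 FPKM in morc-1 (log2 2.61 ± 0.33, limma adjusted p = 0.0129). saeg-2, which was found in the worm as a suppressor of an overactive form of the cGMP-dependent kinase EGL-4, stood at 5.73 and 7.81 FPKM in WT and at 34.3 and 39.95 FPKM in morc-1 (log2 2.30 ± 0.30, limma adjusted p = 0.0170). No library of one group overlapped the other group for these genes.

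The calls of saeg-2, F40D4.13 and ife-5 were lost when certain single libraries were left out, although the rises stayed. Without 1 library their log2 changes ran from 2.11 to 2.50 (saeg-2), 2.33 to 2.89 (F40D4.13) and 1.97 to 2.56 (ife-5). saeg-2 did not pass without any of the 4 libraries in turn: the adjusted p was 0.206 and 0.0756 without WT replicate 1 or 2, and 0.194 and 0.280 without morc-1 replicate 1 or 2. F40D4.13 did not pass without WT replicate 1 (0.139), WT replicate 2 (0.0756) or morc-1 replicate 1 (0.194). ife-5 did not pass without WT replicate 2 (0.129) or morc-1 replicate 1 (0.194). The other 5 passed without each library in turn. With quantile normalization C38D9.2 (log2 2.71, adjusted p = 0.182) and F40D4.13 (adjusted p = 0.7635) did not pass. With the spread estimated from the 4 compared libraries alone, timm-17B.2 (limma adjusted p = 0.0369) and C38D9.2 (0.0411) passed and the other 6 did not, with rnh-1.3 at 0.0515.

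**Figure D1:**
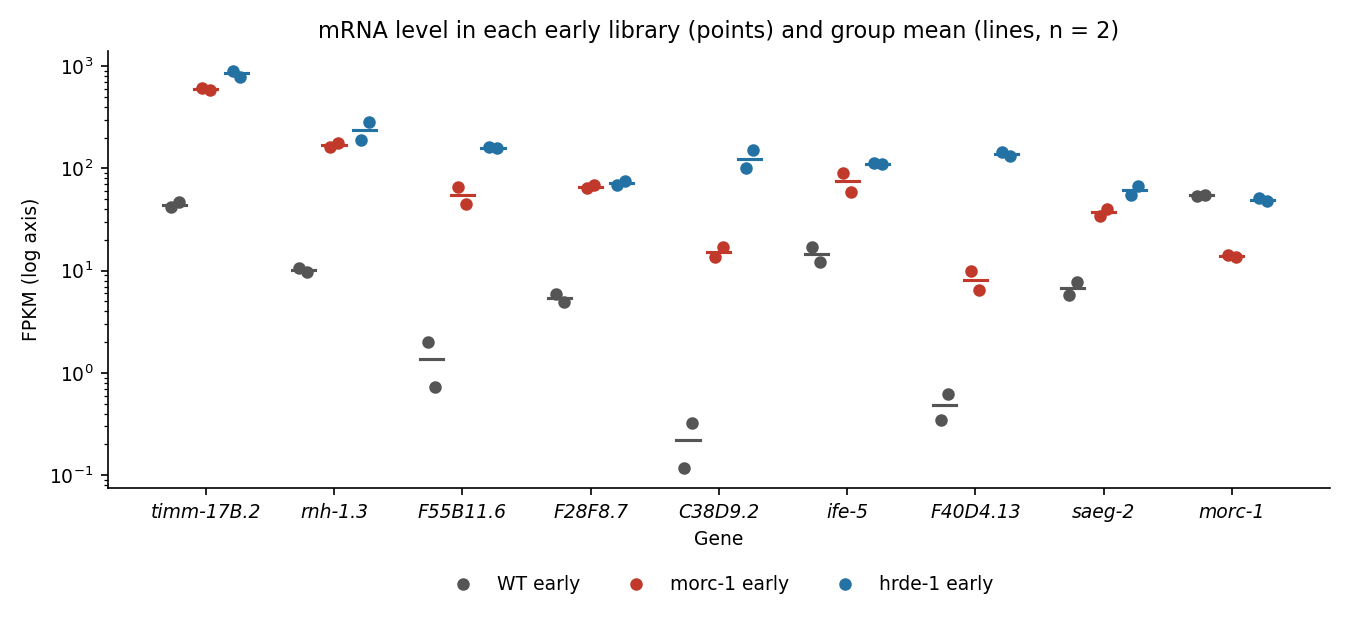
FPKM on a log axis of the 8 genes that rose and of morc-1 in the WT early, morc-1 early and hrde-1 early libraries, 2 points per group with a line at the group mean. Both morc-1 libraries lie above both WT libraries for each of the 8 genes, and below them for the morc-1 gene (54.2 and 54.9 FPKM in WT, 14.1 and 13.7 in the mutant).

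**Figure D2:**
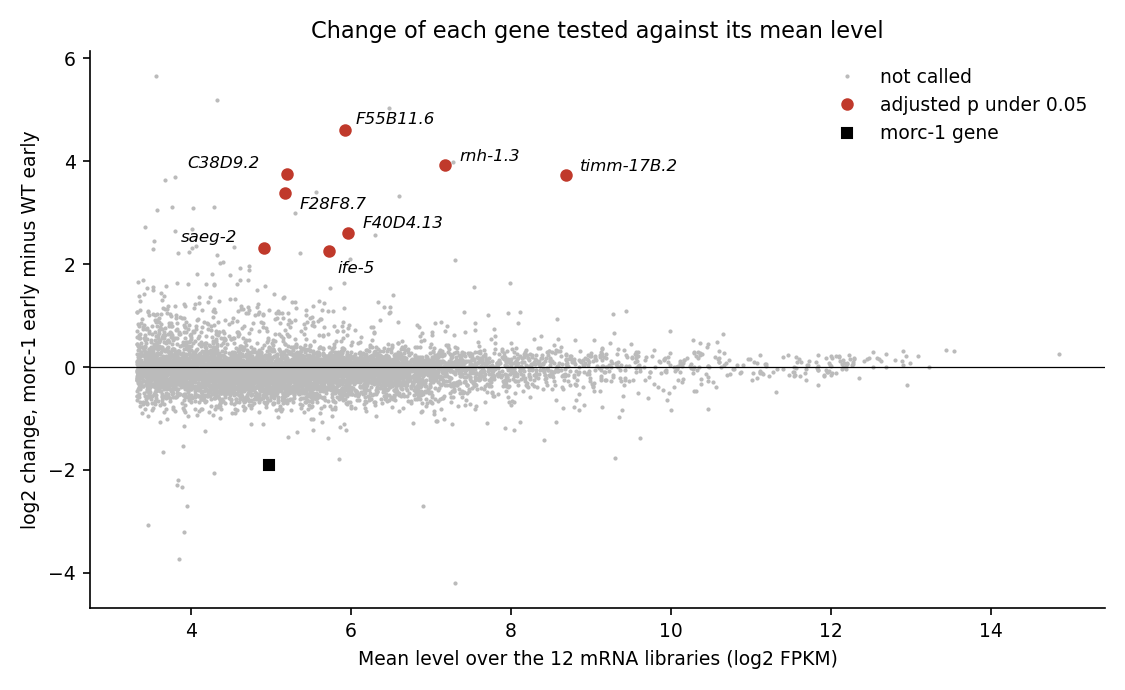
log2 change of morc-1 early over WT early for each of the 7324 genes tested, against the mean level over the 12 mRNA libraries in log2 FPKM. The 8 called genes (red) span changes of 2.26 to 4.604, and the morc-1 gene (black square) lies at -1.90; the bulk of the genes lies near 0.

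Below the filter on low values lay 1 further gene that passed when genes with a mean of at least 1 FPKM were tested (12378 genes). C08F11.7 on chromosome IV stood at 1.70 and 1.05 FPKM in WT early, against 12.4 and 12.9 FPKM in morc-1 early. In that fit its log2 change was 2.54 ± 0.30 (limma adjusted p = 0.0130). It stood at 11.9 and 14.8 FPKM in hrde-1 early and at 12.23 and 16.14 FPKM in morc-1 late.

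Relatives of the genes that rose did not pass. timm-17B.1, the paralog of timm-17B.2 and listed as E04A4.5, stood at 120.7 and 181.1 FPKM in WT and at 118.4 and 176.6 FPKM in morc-1 (log2 -0.03 ± 0.31). Its level followed the replicate number and not the strain. Among RNase H genes, rnh-1.0 had a log2 change of 0.00 ± 0.39, rnh-2 of 0.05 ± 0.33 and rnh-1.2 of 0.33 ± 0.45. rnh-1.1 was below the filter, at 0.565 and 0.514 FPKM in WT and 1.26 and 1.96 FPKM in morc-1. Of the eIF4E genes, ife-1 (0.17 ± 0.38), ife-2 (0.28 ± 0.21), ife-3 (-0.50 ± 0.26) and ife-4 (-0.03 ± 0.38) were not called, and among the 5 tested 1 rose. saeg-1, named from the same screen as saeg-2, was at 12.9 and 18.8 FPKM in WT and at 10.9 and 13.3 FPKM in morc-1 (log2 -0.34 ± 0.45).

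The tested genes nearest to those that rose were not called either. The nearest tested gene on each side of the 8 genes and of C08F11.7 gave 18 neighbours, of which 0 passed (limma). Up to 21 untested genes lay between, on 1 side of F55B11.6, so directly adjacent genes were often not tested. The largest difference was that of Y68A4A.13, on the far side of 13 untested genes from F40D4.13 (log2 1.27 ± 0.34, adjusted p = 0.996). C18D4.6, which lies 6 untested genes from C38D9.2 and is a target of the ERGO-1 small RNA class, stood at 6.54 and 10.7 FPKM in WT and at 21.7 and 16.3 FPKM in morc-1 (1.08 ± 0.36, adjusted p = 1). Genes directly beside rnh-1.3, F28F8.7 and ife-5 had log2 differences of 0.11 ± 0.39 (C04F12.16), 0.00 ± 0.32 (fce-1), 0.20 ± 0.53 (F28F8.9), 0.07 ± 0.36 (Y57A10A.29) and -0.59 ± 0.40 (Y57A10A.31). The library kit marks strand, but whether reads were counted by strand is not given in the sources used here, so reads of overlapping genes may be shared.

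The 8 genes also rose in the other conditions in which they could be compared. All 8 passed in hrde-1 early against WT early, a comparison that uses the same WT libraries, with 41 of 7324 genes higher there (0.56%). All 8 passed in morc-1 late against WT late, in which 26 of 7324 genes were higher (0.355%). The late difference itself uses no library of the early comparison. The early libraries still entered the late test through the shared estimate of the spread, so the late calls are not fully separate from the early ones. The log2 changes late were 3.69 for timm-17B.2, 4.23 for rnh-1.3, 5.09 for F55B11.6 and 2.67 for F28F8.7. They were 3.39 for C38D9.2, 2.51 for ife-5, 3.83 for F40D4.13 and 1.95 for saeg-2. C38D9.2 and F40D4.13 passed the filter on low values only through libraries outside the early comparison. Their rises in these other groups are therefore not separate support.

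The difference between the late and the early change was tested directly. It passed for 0 of 7324 genes in limma (0.0% higher and 0.0% lower), although 882 genes had an unadjusted p under 0.05. This count of 0 also held with a replicate block common to all libraries. With a replicate block fitted separately in each generation, 544 genes were higher and 76 lower, none of the 8 among them. The named genes that passed in that fit lay just under the threshold, with limma adjusted p-values of 0.0473 to 0.0494. Libraries with the same number deviated together in each pair of strains, but with 2 numbers a generation this does not establish that they are paired. Among the 8 genes, the largest difference was that of F40D4.13, whose change was 1.22 ± 0.47 larger late on the log2 scale (adjusted p = 0.386). It stood at 9.95 and 6.44 FPKM in morc-1 early and at 28.6 and 29.7 FPKM in morc-1 late, against 0.870 and 1.38 FPKM in WT late. For the other 7 the difference ran from -0.72 ± 0.44 (F28F8.7) to 0.49 ± 0.48 (F55B11.6), and for timm-17B.2 it was -0.04 ± 0.30.

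The mutants differed from each other at 2 of the 8 genes, F40D4.13 and C38D9.2. Both passed the filter on low values only through libraries other than those of WT early and morc-1 early. High levels in the hrde-1 libraries counted towards that filter, so these 2 differences come in part from the selection. hrde-1 early against morc-1 early had 29 genes higher (0.396%) and 3 lower (0.041%) of 7324. WT libraries entered that test through the shared estimate of the spread, not through the difference. The 29 include morc-1 itself (log2 1.76 ± 0.30, limma adjusted p = 0.0399). F40D4.13 stood at 144.9 and 133.2 FPKM in hrde-1 early, against 9.95 and 6.44 FPKM in morc-1 early (log2 3.96 ± 0.33, limma adjusted p = 0.000657). C38D9.2 stood at 100.0 and 149.9 FPKM in hrde-1 early, against 13.6 and 17.2 FPKM (log2 2.92 ± 0.40, limma adjusted p = 0.00764). The call of C38D9.2 did not hold when any single library was left out: the adjusted p was 0.0982 and 0.0507 without morc-1 replicate 1 or 2, and 0.0506 and 0.229 without hrde-1 replicate 1 or 2. It was 0.0965 with the spread taken from the 4 compared libraries alone.

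For the other 6 the hrde-1 libraries were higher on average, without passing. F55B11.6 stood at 162.0 and 158.0 FPKM in hrde-1 early, above both morc-1 libraries (log2 1.54 ± 0.34, limma adjusted p = 0.174). The differences of saeg-2 (0.70 ± 0.30), ife-5 (0.60 ± 0.28), timm-17B.2 (0.50 ± 0.21) and rnh-1.3 (0.46 ± 0.25) each had an adjusted p of 1. F28F8.7 stood at 68.2 and 74.9 FPKM in hrde-1 early and at 64.4 and 68.6 FPKM in morc-1 early, a log2 difference of 0.10 ± 0.31 (adjusted p = 1).

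Small RNAs of the same strains and generation, made with a method that also captures the triphosphorylated secondary siRNAs, were set beside the mRNA. They were deposited as a signal scaled per library, for 2434 features. Of the 2349 features tested, 101 were higher (4.3%) and 271 lower (11.5%) in morc-1 early (limma on log2(signal + 1)), with a median change of -0.18 on the log2 scale. With quantile normalization 444 were higher and 263 lower and the median was 0.10, so the balance of rises and falls depends on the scaling. Depth was uneven: morc-1 early replicate 1 held 54599 reads on these features, where 1 read equals a signal of 21.7, and the other 5 libraries held 338599 to 2274591 reads.

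Of the 8 genes whose mRNA rose, 6 had a small RNA feature that was tested, and 3 of these 6 had fewer small RNAs. rnh-1.3 had a signal of 4108, 3779 and 4202 in WT early and 455, 235 and 571 in morc-1 early. That is a log2 change of -3.35 ± 0.32 (limma adjusted p = 1.91e-05). timm-17B.2 went from 1136, 1467 and 1169 to 412, 734 and 688 (-1.07 ± 0.23, adjusted p = 0.00518), and F40D4.13 from 3284, 2538 and 2824 to 1798, 1247 and 1271 (-1.01 ± 0.24, adjusted p = 0.00937). The groups did not overlap for these 3 genes, whose calls held with quantile normalization, with edgeR on recovered reads and with a block for the replicate number. With the spread taken from the 6 compared libraries alone, timm-17B.2 missed (adjusted p = 0.0594) and the other two passed. Non-overlap downwards held for 19.8% of all features.

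The other 3 did not pass. F55B11.6 was at 346, 266 and 277 in WT and at 217, 184 and 212 in morc-1 (-0.53 ± 0.34, limma adjusted p = 0.268). C38D9.2 was at 3769, 2914 and 2918 in WT and at 3704, 3221 and 2397 in morc-1, a difference of -0.05 ± 0.19 with overlapping groups. saeg-2 was at 4093, 3661 and 3559 in WT and at 4440, 5812 and 3300 in morc-1 (0.23 ± 0.21). In hrde-1 early the small RNA signal was far lower at both of these, 564 and 594 at C38D9.2 and 113 and 134 at saeg-2. F28F8.7 and ife-5 were not among the features tested. C08F11.7, the low gene that passed with the looser filter, went from 1147, 1162 and 782 to 21.7, 51.1 and 52.5 (-4.67 ± 0.33, limma adjusted p = 4.36e-06).

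Across genes tested in both assays, mRNA rose at 3 of the 75 genes whose small RNA fell. There were 664 genes with both, of which 40 had a higher mRNA at an unadjusted p under 0.05 and 7 a lower one. Among the 75, mRNA was higher at 12 and lower at 0 at an unadjusted p under 0.05. Small RNA rose at 31 genes, of which 3 had a higher mRNA and 1 a lower one at that level. Of the 558 whose small RNA was not called, 25 were higher and 6 lower, and 3 rose after adjustment. The median mRNA change was 0.09 where small RNA fell, 0.07 where it rose and -0.002 in the rest. Features of transposons, the classical targets of small RNA silencing, numbered 191; 6 rose and 7 fell, with a median of 0.30.

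**Figure D3:**
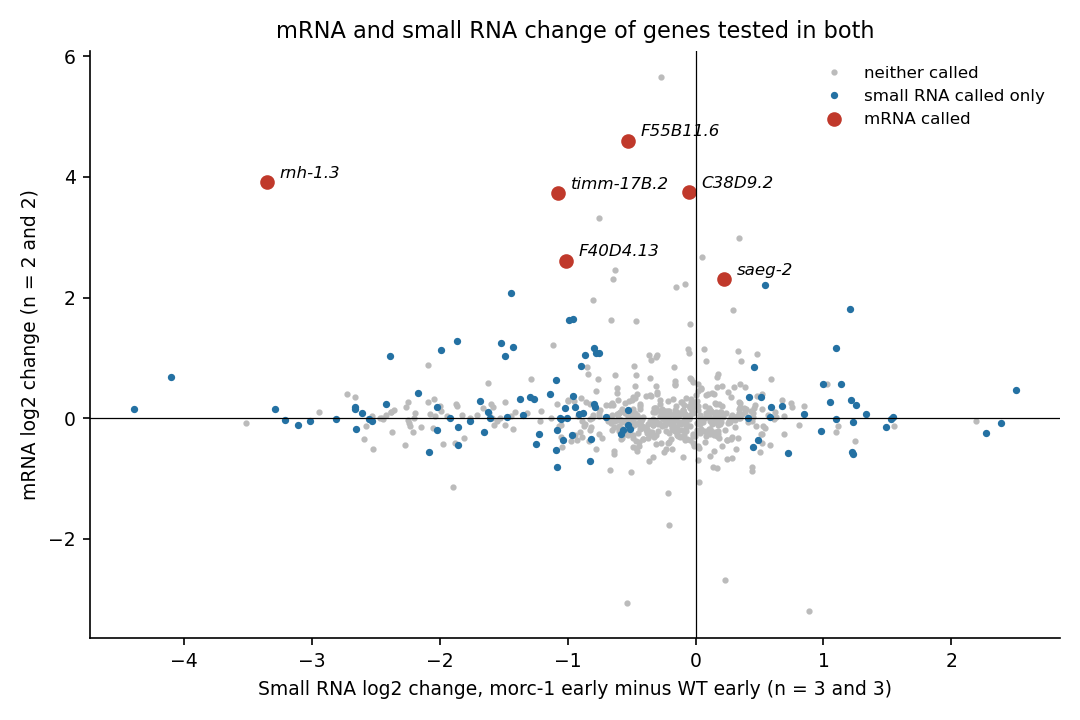
mRNA log2 change against small RNA log2 change, morc-1 early minus WT early, for 664 genes tested in both assays. The called mRNAs (red) are spread from rnh-1.3, with a small RNA change of -3.35, to saeg-2 at 0.23, while most genes whose small RNA was called (blue) have mRNA changes near 0.

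Other genes had rises in the range of the called genes without passing. T06A10.2 was listed at 0 in both WT early libraries and stood at 56.5 and 22.3 FPKM in morc-1 early (limma adjusted p = 0.140). JC8.11 was listed at 0 in both WT libraries and stood at 21.5 and 111.5 FPKM in morc-1 (adjusted p = 0.234). C25H3.18, annotated as a pseudogene, was at 15.3 and 14.9 FPKM in WT early, against 98.7 and 89.9 FPKM in morc-1 early (log2 2.57 ± 0.44, limma adjusted p = 0.119), but WT late stood at 88.5 and 86.1 FPKM. ZC190.10 was at 4.01 and 6.03 FPKM in WT and at 33.1 and 26.01 FPKM in morc-1 (2.35 ± 0.46, adjusted p = 0.208). Among genes tested, 36 were listed at 0 in both WT early libraries and 26 in both morc-1 early libraries.

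No gene fell after adjustment. Among genes with an unadjusted p under 0.05 and no overlap between the groups, 2 had a larger difference downwards than morc-1 itself, each with 1 morc-1 library listed at 0. Y105C5A.14, annotated as a pseudogene, was at 9.15 and 32.7 FPKM in WT early, against 3.89 and 0 FPKM in morc-1 early (log2 -3.065 ± 1.34, limma adjusted p = 1). fipr-16 was at 7.06 and 18.5 FPKM in WT and at 6.58 and 0 FPKM in morc-1 (-2.19 ± 0.90, adjusted p = 1). The next was C33B4.4, at 28.02 and 34.6 FPKM in WT and at 10.9 and 9.42 FPKM in morc-1 (log2 -1.53 ± 0.30, limma adjusted p = 0.211). It was low in hrde-1 early as well, at 7.51 and 6.48 FPKM. lea-1, a gene of the late embryogenesis abundant family known from drought tolerance, was at 235.9 and 129.4 FPKM in WT and at 74.1 and 73.5 FPKM in morc-1 (-1.23 ± 0.29, adjusted p = 0.529). In hrde-1 early it stood at 65.6 and 77.8 FPKM. Across all genes the median change was -0.06, with 87.1% of genes within 0.5 of 0 on the log2 scale, 151 genes at 1 or above and 43 at -1 or below. The median SE was 0.36. Of the 7324 genes tested, 4397 were lower (60.04%) and 2926 higher (39.95%). With quantile normalization 3656 were lower and 3668 higher, so these shares depend on the scaling.

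Oocyte and P granule genes stood lower in morc-1 early, although none of them passed on its own. In a bulk sample, fewer cells of a type and less RNA per cell cannot be told apart. Oogenesis genes provide the eggshell, yolk uptake and RNA-binding proteins of the oocyte. They were lower for 29 of 29 genes tested (60.04% of all genes), with a median log2 change of -0.64 against -0.06 for all genes. For 14 of the 29 the unadjusted p was under 0.05 (1.77% of all genes), a count that went to 1 without WT replicate 1 and to 4 without morc-1 replicate 1. For 19 both morc-1 libraries lay below both WT libraries (19.4% of all genes). The median stayed negative under both other scalings and without each library in turn, from -0.88 (without WT replicate 2) to -0.44 (without WT replicate 1).

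cbd-1, which encodes a chitin-binding protein of the eggshell, was at 649.9 and 265.3 FPKM in WT early, against 140.2 and 172.7 FPKM in morc-1 early (log2 -1.41 ± 0.36, limma adjusted p = 0.851). cpg-1, a chondroitin proteoglycan of the eggshell, was at 1391 and 513.1 FPKM in WT and at 305.2 and 345.7 FPKM in morc-1. lin-41, a regulator that keeps oocytes from maturing early, was at 102.5 and 47.4 FPKM in WT and at 24.1 and 35.3 FPKM in morc-1. puf-7, a PUF RNA-binding gene, was at 78.7 and 40.8 FPKM in WT and at 19.3 and 28.8 FPKM in morc-1. The groups did not overlap for these 4 genes, but WT replicate 1 stood well above WT replicate 2 for each. rme-2, the yolk receptor, had a log2 difference of -1.18, and the RNA-binding genes mex-5, oma-1 and mex-3 of -1.09, -0.76 and -0.88.

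P granule genes, whose products form the RNA-rich germ granules, were lower for 31 of 32 tested (60.04% of all genes). Their median was -0.43, and 7 of them are also on the oogenesis list. The median stayed negative under both other scalings and without each library. It was -0.375 and -0.52 without WT replicate 1 or 2, against -0.20 and 0.07 for all genes. Without morc-1 replicate 1 or 2 it was -0.32 and -0.62, against 0.07 and -0.21 for all genes. Both morc-1 libraries lay below both WT libraries for 22 of them (19.4% of all genes). pie-1 was at 159.3 and 137.2 FPKM in WT and at 81.4 and 93.8 FPKM in morc-1, and glh-2, a Vasa-like helicase, at 58.6 and 48.8 against 29.2 and 37.4 FPKM. gld-1, a translational repressor of the germline, was at 648.9 and 433.9 FPKM in WT and at 281.7 and 335.1 FPKM in morc-1. Meiotic chromosome genes differed far less, with a median of -0.06 like that of all genes, which turned positive with either other scaling (0.001 and 0.006) and without WT replicate 2 or morc-1 replicate 1 (0.07 each). Of these genes 21 of 29 were lower (72.41%, against 60.04% of all genes) and 0 had an unadjusted p under 0.05. The difference between germline lists was not tested.

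Sperm genes stood higher. Of the major sperm protein genes, whose product drives the crawling of nematode sperm, 35 were measured and 21 were tested. Of these, 21 of 21 were higher (39.95% of all genes), with a median log2 change of 0.87. In 18 of them both morc-1 libraries lay above both WT libraries (10.3% of all genes), but 0 had an unadjusted p under 0.05. The median was 0.57 without WT replicate 2. msp-49 was at 18.8 and 12.19 FPKM in WT and at 31.9 and 43.4 FPKM in morc-1, and msp-142 at 6.37 and 5.41 against 9.23 and 22.96 FPKM. These genes are near-identical copies, so how reads were split among them is uncertain and they do not count as separate evidence. Of 49 spermatogenesis genes measured, 22 were tested and 20 of these were higher (39.95% of all genes), with a median of 0.85. The filter used the mean over all 12 mRNA libraries, so high levels in either mutant could help to select members of both sperm lists. In hrde-1 late (F4) the tested major sperm proteins summed to 1009 and 4722 FPKM. The counts of higher sperm genes may thus come in part from that selection. htas-1, a histone H2A variant of sperm, was at 5.05 and 5.84 FPKM in WT and at 13.1 and 18.9 FPKM in morc-1 (limma unadjusted p = 0.02003).

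Summed over the list, the major sperm proteins came to 372.3 and 277.3 FPKM in WT early, against 544.3 and 668.2 FPKM for morc-1 and 643.6 and 675.7 FPKM for hrde-1 of that generation. The oogenesis genes summed to 14250 and 9533 FPKM in WT early, with 7524 and 7539 FPKM for morc-1 and 10550 and 9943 FPKM for hrde-1. The sperm sums of both mutants thus lay above WT, while the oogenesis sums of hrde-1 lay within the range of the WT libraries. No member of these lists was at 0 in an early library of WT or morc-1. The part of sperm and oocyte content in the rises of the 8 genes was not tested.

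Set against the late generation, the median change turned for oogenesis genes and was smaller for major sperm proteins. The median change of the oogenesis genes was -0.64 early and 0.87 in morc-1 late against WT late, and that of the P granule genes was -0.43 early and 0.66 late, when the median of all genes was 0.25. WT late was the low group there: the median level of the oogenesis genes on the log2(FPKM + 1) scale went from 8.30 and 7.76 early to 6.74 and 7.03 late in WT, and stood at 7.16 and 7.45 early against 7.86 and 7.73 late in morc-1. For major sperm proteins the median change was 0.87 early and 0.44 late. The WT late libraries differed widely from each other there, with sums of 63.3 and 731.3 FPKM. The morc-1 late sums, 245.7 and 386.0 FPKM, lay between them, so a late rise is not shown. The turn of the list medians was not tested. No single gene passed the test of late against early change in the model without the replicate numbers. With the replicate numbers as a block fitted separately early and late, 18 of the 29 oogenesis genes, 16 of the 32 P granule genes and 0 of the 21 major sperm protein genes had a higher change late (limma adjusted p under 0.05), among 544 higher and 76 lower of all 7324 genes.

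**Figure D4:**
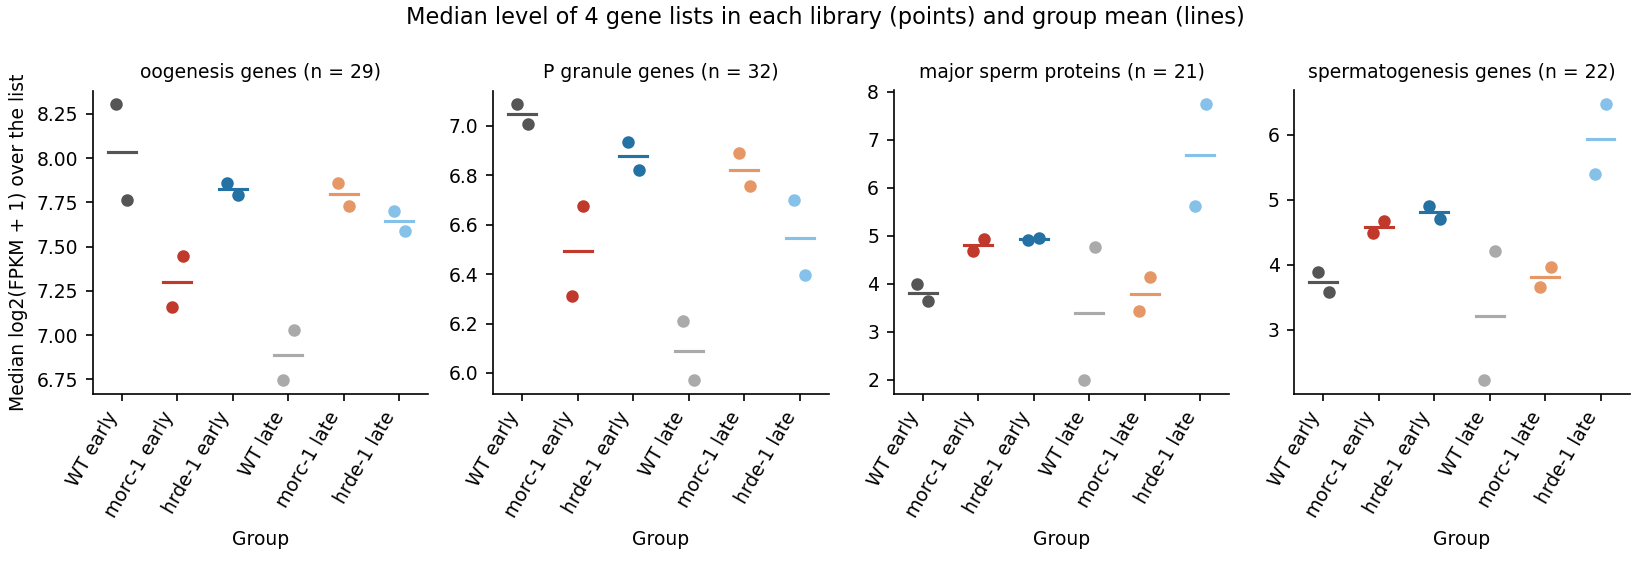
Median log2(FPKM + 1) of 4 gene lists in each mRNA library (points, 2 per group) with the group mean (line); each panel has its own axis, which does not start at 0. In the early groups, morc-1 lies below WT for oogenesis genes (7.16 and 7.45 against 8.30 and 7.76) and P granule genes and above WT for both sperm lists.

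Genes of the small RNA pathways were lower or level. Of the Argonaute list, the proteins that bind small RNAs, 14 of 15 genes tested were lower (60.04% of all genes), with a median of -0.37. For 13 of them both morc-1 libraries lay below both WT libraries (19.4% of all genes). The list also holds hrde-2, which is not itself an Argonaute. ergo-1, which binds primary siRNAs, was at 77.1 and 55.2 FPKM in WT and at 24.98 and 37.2 FPKM in morc-1 (log2 -1.07). ppw-1, which binds secondary siRNAs, was at 60.7 and 88.3 against 30.6 and 41.8 FPKM (-1.01), and alg-2, a microRNA Argonaute, at 16.6 and 11.7 against 6.50 and 7.80 FPKM (-0.88). rde-1, the Argonaute of the response to double-stranded RNA, had a difference of 0.02. Nuclear RNAi factors were lower for 6 of 6 (60.04% of all genes), a list that includes morc-1 itself. It shares 2 genes, ergo-1 and hrde-1, with the Argonaute list, so these are not separate evidence. The remaining genes were nrde-1 at -0.21, nrde-2 at -0.10 and nrde-4 at -0.05, against a median of -0.06 for all genes. Small RNA amplification genes, which make secondary siRNAs, had a median of -0.11, which turned to 0.03 without WT replicate 2 or morc-1 replicate 1, with 0 of 27 at an unadjusted p under 0.05.

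The known nuclear RNAi targets that passed the filter on low values were higher. Of 6 such genes measured, 4 passed the filter, and 1, C38D9.2, rose. The other 3 did not pass: F15D4.5 was at 3.36 and 5.52 FPKM in WT and at 7.11 and 15.97 FPKM in morc-1 (log2 1.14), R03D7.2 at 7.47 and 4.53 against 11.8 and 11.08 FPKM (0.86), and K02E2.6 at 17.7 and 40.02 against 21.8 and 38.98 FPKM (0.12). The median of the 4 was 1.00 for the morc-1 and 3.55 for the hrde-1 mutant, each against the same WT libraries. C38D9.2, F15D4.5 and R03D7.2 passed the filter only through libraries other than those of WT early and morc-1 early. High levels in other groups thus helped to select them, and both medians come from that selection. Targets of the ERGO-1 class had a median of 0.21 over 6 genes, which turned to -0.17 without WT replicate 1 and to -0.27 without morc-1 replicate 2.

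Histone methylation genes, which write or erase chromatin marks, showed medians of -0.17 for 14 genes acting on H3K9 and -0.21 for 15 acting on H3K36, H3K27 or H3K4. None of them had an unadjusted p under 0.05. Among the former, set-25, an H3K9 methyltransferase, was at 22.2 and 30.03 FPKM in WT and at 9.59 and 20.1 FPKM in morc-1. Without morc-1 replicate 1 the first median was -0.02 and the second turned to 0.02; without WT replicate 2 they were -0.07 and -0.11, and without morc-1 replicate 2 -0.33 and -0.54. Leaving out a library also moved the median of all genes, which ran from -0.21 without morc-1 replicate 2 to 0.07 without morc-1 replicate 1. The replicate 1 libraries of both strains had lower median levels than the replicate 2 libraries, 5.39 against 5.68 in WT and 5.25 against 5.63 in morc-1 on the log2(FPKM + 1) scale.

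Somatic lists stayed near the median of all genes. Muscle genes had a median of 0.15 (15 of 19 higher), intestine genes 0.07 (18 of 28 higher) and neuron genes 0.20 (5 of 6 higher). Of all genes, 39.95% were higher. The muscle median was 0.01 without WT replicate 1 and the neuron median 0.005 without morc-1 replicate 2. The 5 hypodermis genes tested lay between -0.17 and 0.16. The 78 cytosolic ribosomal protein genes were level, with a median of 0.06 over 77 tested, which turned to -0.05 without WT replicate 2 and to -0.03 without morc-1 replicate 1. Genes of the heat shock list were lower for 15 of 17 (60.04% of all genes), with a median of -0.28. sip-1, a small heat shock protein gene of embryos and germline, was at 3117 and 2579 FPKM in WT and at 1955 and 2086 FPKM in morc-1, and hsp-110 at 227.2 and 166.6 against 130.6 and 127.1 FPKM. Yolk protein genes, made in the intestine and taken up by oocytes, overlapped between the strains for all 6, and their median of -0.24 turned positive without WT replicate 1 (0.11) or morc-1 replicate 2 (0.14).

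Genes with neuropeptide-like or insulin-like symbols were higher for 28 of 33 tested (39.95% of all genes), with a median of 0.28. Their symbols alone do not show in which tissue they act. The median stayed positive under both other scalings and without each library. It ran from 0.16 without morc-1 replicate 2, when 20 of the 33 were higher, to 0.45 without WT replicate 2 and 0.62 without morc-1 replicate 1. nlp-34 was at 10.2 and 2.98 FPKM in WT and at 46.2 and 23.2 FPKM in morc-1 (log2 2.34 ± 0.56, limma adjusted p = 0.573), and in hrde-1 early it was at 9.86 and 13.98 FPKM. nlp-20 was at 59.8 and 57.7 FPKM in WT and at 128.5 and 95.7 FPKM in morc-1. nlp-56 went the other way, from 13.8 and 13.1 to 8.71 and 4.92 FPKM. In 12 of the 33 both morc-1 libraries lay above both WT libraries (10.3% of all genes).

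Cuticle collagen genes, which are expressed in waves with each moult, followed the replicate number and not the strain. Over 61 genes tested they summed to 7682 FPKM in WT replicate 1 and 7982 in morc-1 replicate 1, and to 26800 and 25420 FPKM in the replicate 2 libraries. In hrde-1 early the sums were 6541 and 29970 FPKM. Their median change was 0.08, but it was -0.54 without WT replicate 1 and 0.97 without WT replicate 2. The list was matched by symbol and also takes in genes such as dpy-28, which encodes a condensin subunit, and bli-4, a protease gene. Core and linker histones (median 0.11, 19 genes), F-box genes (0.03, 26), MATH and BATH genes (-0.03, 22) and C-type lectins (-0.01, 38) were centred near 0, and each of these medians changed sign without at least 1 library or with another scaling.

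Single members stood out from some of these families without passing. fbxb-97, an F-box gene, was at 3.75 and 3.12 FPKM in WT and at 14.9 and 10.7 FPKM in morc-1 (log2 1.62, limma unadjusted p = 0.000676). bath-13 was at 4.68 and 3.33 FPKM in WT and at 13.9 and 14.9 FPKM in morc-1 (1.63). dpy-14, a collagen gene, was at 14.3 and 34.7 FPKM in WT and at 7.10 and 8.91 FPKM in morc-1. fat-7, a fatty acid desaturase gene of the intestine, was at 152.3 and 199.0 FPKM in WT and at 226.8 and 342.1 FPKM in morc-1.

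**Figure D5:**
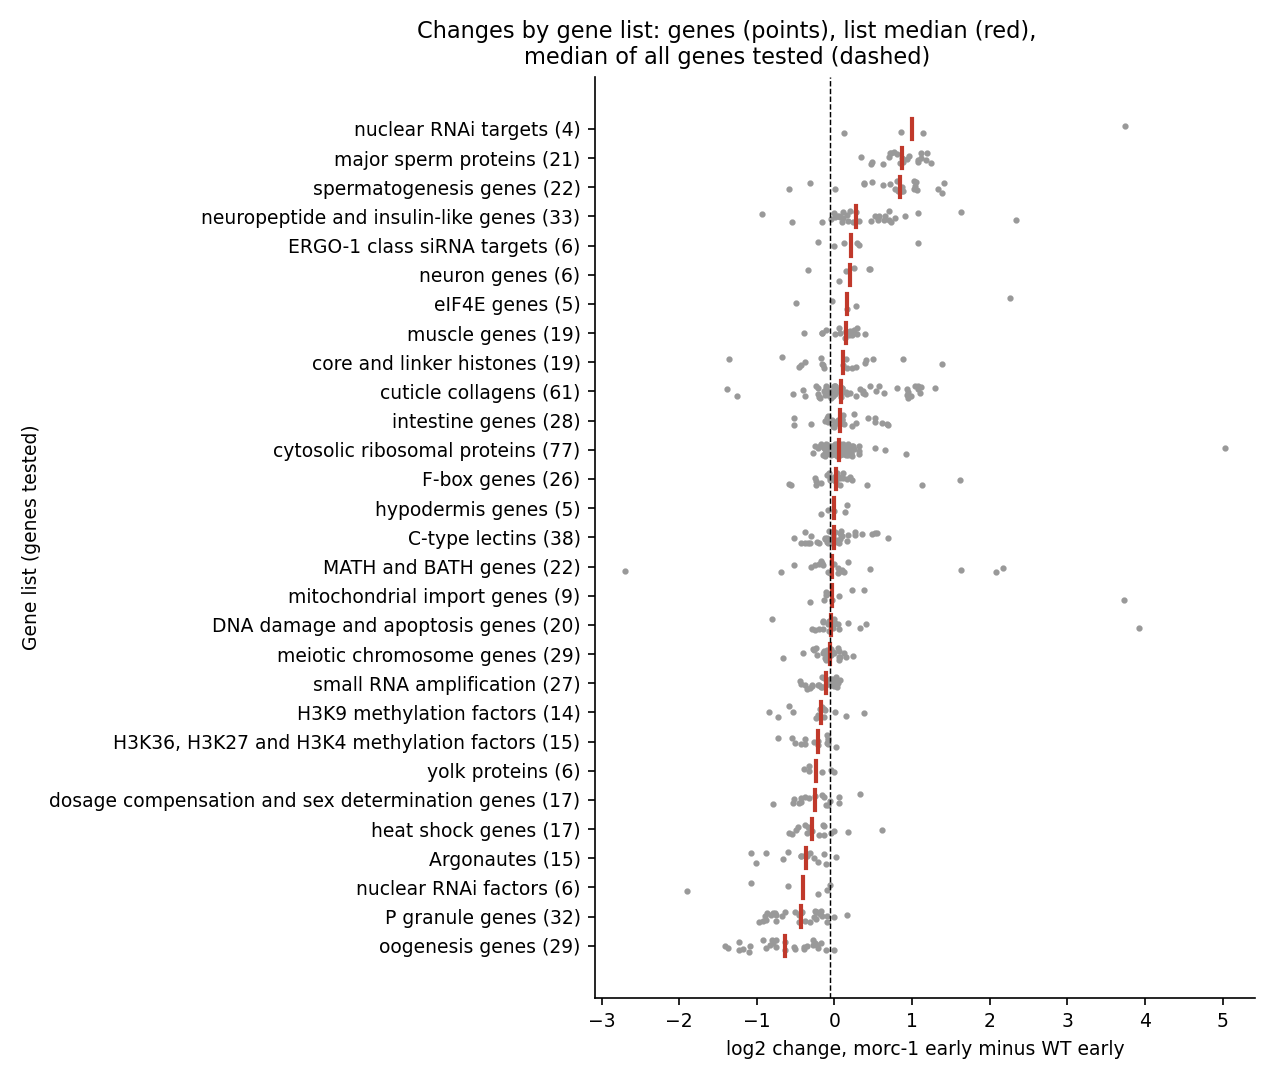
log2 change, morc-1 early minus WT early, of the genes tested in each list (points) with the list median (red bar) and the median of all genes (dashed line, -0.06); lists with fewer than 4 genes tested are left out. Sperm lists lie at medians of 0.87 and 0.85 and oogenesis genes at -0.64; the points above 2 are rpl-41.1 (1 early library above 0), rnh-1.3, C38D9.2, timm-17B.2, nlp-34, ife-5, bath-11 and bath-12.

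Grouped by symbol, 61 gene classes had at least 10 genes tested. The highest medians were those of msp (0.87, 21 genes), nlp neuropeptide-like genes (0.40, 20 genes) and spp saposin-like genes (0.22, 15 genes). Next came ttr transthyretin-related genes (0.22, 37 genes) and skr Skp1-related genes (0.17, 16 genes). The lowest were rpn proteasome regulatory subunits (-0.31, 13 genes), npp nucleoporins (-0.28, with 25 of 25 lower), ced (-0.27, 10 genes), ints Integrator subunits (-0.24, with 10 of 10 lower) and gly (-0.21, 10 genes). Those of ced and gly changed sign without morc-1 replicate 1, to 0.05 and 0.10, and that of gly also without WT replicate 2 (0.05). Others came close to 0 without 1 library: ttr (0.004) and skr (0.02) without WT replicate 1, spp (0.04) without WT replicate 2, and ints (-0.07) without morc-1 replicate 1. Those of msp, nlp, rpn and npp kept their sign and a size of at least 0.15. In all these classes 0 genes rose or fell after adjustment. Among all genes tested, 60.04% were lower and 39.95% higher.

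By chromosome, 655 genes on X and 6605 on the autosomes were tested. X, which is largely silent in the germline, held 0 of the 8 genes that rose. At an unadjusted p under 0.05, 27 X genes were higher (4.12%) and 6 lower (0.916%), against 61 higher (0.924%) and 123 lower (1.86%) on the autosomes. The median change was 0.01 on X and -0.06 on the autosomes, and X lay above the autosomes by 0.05 to 0.10 under both other scalings and without each library in turn. The counts moved more: without WT replicate 1 or morc-1 replicate 1, 57 and 55 autosomal genes were higher and 22 and 25 lower, and without WT replicate 2 or morc-1 replicate 2, 38 each were higher and 151 and 158 lower. On X, 14 and 10 genes were higher and 6 each lower without WT replicate 1 or morc-1 replicate 2. The part of tissue content in this difference was not tested.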

How the data were processed

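The tables the authors deposited were used as they are, without realigning reads. The submitters' processing notes state that mRNA was processed with Trimmomatic 0.35 and TopHat2 and small RNA with DESeq2, the last 2 without a version. For genome build, annotation and counting settings the sources used here give nothing. The mRNA values deposited by the authors are named normalized counts but are not whole and were read as FPKM. The small RNA signal deposited by the authors holds reads per feature after division by a size factor of the library, from which whole reads were recovered (100.0% of values within 0.02 reads). The chromatin table was not used here.

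Genes with a mean of at least 10 FPKM over the 12 mRNA libraries (7324) and features with a mean signal of at least 10 over the 16 small RNA libraries (2349) were compared on log2(value + 1) in limma 3.58.1 (R 4.3.3). Groups were fitted as means with a moderated variance and trend, and p-values were adjusted after Benjamini and Hochberg over all genes tested. edgeR 4.0.16 and DESeq2 1.42.0 on recovered small RNA reads were alternatives. The limma fit was tested on simulated data. Intervals are SE, and values per library cover the spread of 2 (mRNA) or 3 (small RNA) libraries. Comparisons were morc-1 early against WT early, the late minus the early change, hrde-1 early against morc-1 early, and the same strains in small RNA. Other scalings, pseudocounts, filters, blocks and omitted libraries were tried. The same replicate numbers in small RNA deviated together in each of 3 pairs (r = 0.237, 0.458 and 0.357). The main small RNA test did not use these numbers, and a block for them was run as an alternative.

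Genes were named by rule: the mutated genes, all called genes, the 10 largest rises and falls not called with an unadjusted p under 0.05 and no overlap, up to 4 members per list with the lowest unadjusted p, and relatives and neighbours of called genes. Further list members (rme-2, mex-5, oma-1, mex-3, rde-1, nrde-2, nrde-4) were named after their values were seen. The members and the 30 lists were chosen with earlier results of these data known. Chromosomes, biotypes and neighbour order come from RefSeq genes of WBcel235, matched by sequence name for 21289 of 21976 genes; no coordinates are given.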

Additional observations from a re-analysis of the deposited data

Results flagged for a closer look

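For 7 named genes, both morc-1 libraries lay on one side of both WT libraries early and on the other side late. The difference between the late and the early change was tested in limma and did not pass for any of them; with a replicate block within each generation it passed for 6 of the 7, all but F25H5.10, with adjusted p-values near 0.0473. It was 1.4 on the log2 scale for wago-9, the symbol under which hrde-1 is listed (early -0.59, late 0.81, adjusted p = 0.349). For the oogenesis genes it was 2.39 for cbd-1, 2.12 for cpg-1, 2.36 for puf-7 and 2.38 for lin-41, with adjusted p-values of 0.349 to 0.357. These 4 stood lower in morc-1 than in WT early and higher late, as did their list: WT late was at 228.2 and 196.0 FPKM for cbd-1, against 649.9 and 265.3 in WT early, and morc-1 late was at 470.3 and 369.7 FPKM. fipr-16 differed by 6.22 (adjusted p = 0.349), with both WT late libraries listed at 0 and a single morc-1 early library at 0. F25H5.10 went the other way, by -3.80 (adjusted p = 0.357), with 1 of its WT early libraries at 0. Groups of 2 or 3 libraries are too small to test a single library as an outlier.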

How the results depend on the processing

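The count of 8 rises became 7 with quantile normalization (6 of the 8 and usp-33, with 1 fall) and 11 with upper quartile scaling (1 fall). Taken over the libraries compared, the filter of 10 FPKM gave 6 rises, with C38D9.2 and F40D4.13 not tested. The count was 8 and 7 with pseudocounts of 0.1 and 5, and 12 with no filter (3 falls). It was 2 with only the groups compared, 5 to 9 when 1 library was left out (with 0 to 1 falls), and 7 with a replicate block. The early mRNA libraries with the same number deviated together (r = 0.487 between WT and morc-1, 0.429 between WT and hrde-1, 0.554 between the mutants), as did the late ones (0.442, 0.518 and 0.436), but 2 numbers a generation do not establish that they pair the samples. A replicate block within each generation gave 17 rises and 1 fall, and for the late minus early change 544 higher and 76 lower instead of 0 and 0; a replicate block common to all libraries left that change at 0 and 0 and hrde-1 against morc-1 at 29 and 3. The late minus early change otherwise had 1 fall with no filter and 0 to 1 falls without a library. hrde-1 against morc-1 gave 69 higher and 6 lower with a mean of at least 1 FPKM, 78 and 12 with no filter, 1 lower with only the groups compared, and 12 to 22 higher and 1 to 3 lower without a library. Small RNA gave 444 rises with quantile normalization, 44 rises and 141 falls with only the groups compared, 157 rises with edgeR, 284 with DESeq2, 64 to 112 rises and 189 to 332 falls without a library, and 79 and 226 with the replicate block. A block without morc-1 replicate 1, chosen after seeing the data, gave 134 and 358. In mRNA, timm-17B.2 passed in 15 of 15 alternatives, while F40D4.13 and saeg-2 each lost their call in 6; no named gene that passed changed direction in the alternatives run. With a median SE of 0.36 on the log2 scale, changes near 1 were mostly not detectable. Causes of these differences were not tested.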

Other observations

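Some large differences rest on 1 library. rpl-41.1, a ribosomal protein gene, was listed at 0 in both WT early libraries and in morc-1 early replicate 2 and at 1066 FPKM in morc-1 early replicate 1. F15H9.8 and T09E11.11, annotated as pseudogenes, were at 330.5 and 174.1 FPKM in WT early replicate 1 and listed at 0 in the other 3 early WT and morc-1 libraries. F37D6.3 stood at 1.83 and 2.65 FPKM in WT early and 0 and 0.856 FPKM in morc-1 early, and at 61.4 and 53.6 FPKM in hrde-1 early. Among the genes tested, 70 were listed at 0 in at least 1 of the 4 early libraries of WT and morc-1.

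At some genes small RNAs rose strongly, and at others, such as W05H12.1, they were nearly lost. C46G7.3 had a signal of 60.2, 116.7 and 157.2 in WT early, of 4917, 5571 and 3972 in morc-1 early and of 3113 and 2778 in hrde-1 early (log2 5.51 ± 0.58, limma adjusted p = 4.25e-05). cdh-5, a cadherin gene, went from 90.3, 63.2 and 8.93 to 693, 736 and 619 (4.14 ± 0.70, limma adjusted p = 0.00108). T16G12.4 went from 388, 578 and 358 to 2296, 2189 and 1800 in morc-1 early and stood at 32.9 and 42.9 in hrde-1 early. W05H12.1 was at 425, 310 and 248 in WT early and at 0, 3.93 and 6.97 in morc-1 early (limma adjusted p = 1.91e-05), where 1 read equals a signal of 21.7 in the first library.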
